A study of Mus musculus with 9 samples.

Results

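The tumor necrosis factor (TNF) superfamily was examined in MyC-CaP, a prostate cancer cell line derived from a mouse tumor and used here as a single line, before and after recombinant asporin (ASPN), a protein secreted by stromal fibroblasts. The family was taken as 43 of the 15384 protein-coding genes in the deposited RNA-Seq count table, chosen by gene symbol alone: Tnf, every Tnfsf and Tnfrsf gene with a number, Fas, Fasl, Cd40, Ltbr, Lta, Ltb, Ngfr, Eda2r and the TNF receptor-associated factors Traf1 to Traf7. They comprised 12 ligands, 6 receptors with a death domain, 15 receptors without one, a cluster of 3 receptor genes on chromosome 7 and 7 TRAF adaptors. Edar, which has a symbol of the same family, was not analysed here. The 9 libraries were made from cells first starved for 6 to 12 hours in medium free of serum and calcium, and then exposed to recombinant mouse ASPN (100 ng/mL). RNA was taken at the start (time 0), at 12 hours and at 24 hours, in 3 replicate cultures each, and in GEO's labels the cultures of time 0 carry the ASPN treatment too. No library of cells held for 12 or 24 hours without ASPN was analysed here, so ASPN and the hours in culture cannot be told apart in any comparison below.

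TNF superfamily ligands are mostly trimeric membrane proteins, some of which are released as soluble cytokines. Their receptors fall into those with a cytoplasmic death domain, which can recruit caspase-activating complexes, and those that bind TRAF proteins, which are ubiquitin ligases and scaffolds that connect the receptors to NF-κB and to the JNK kinases. Decoy receptors bind ligand without passing the signal on. In epithelial and carcinoma cells the family is best known for TNF, TRAIL and TWEAK signaling, whereas many of the remaining ligands and receptors are known from lymphocytes and myeloid cells.

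The total counts per library ranged from 41881191 to 52993821, and 3 counts in a library corresponded to 0.0566 to 0.0716 CPM, the count divided by the library total and multiplied by 1000000. Scaling factors for RNA composition (TMM) lay between 1.04 and 1.07 in the 6 libraries of the earlier times and between 0.898 and 0.911 in those of 24 hours. All CPM values below include these factors, and n = 3 libraries per time throughout. Of the prostate epithelial markers, Cldn3, Foxa1, Hoxb13 and Krt8 were detected in every library, with mean levels that moved by 24 hours. From time 0 to 24 hours Foxa1 went from 233 to 90.8 CPM, Cldn3 from 609 to 710.5 CPM, Hoxb13 from 71.8 to 96.6 CPM and Krt8 from 25.4 to 38.1 CPM, and the part of this shift in the results was not tested. The markers Epcam, Cdh1 and Krt18 stayed under 1 CPM in every library although the label names prostate cancer epithelial-like cells. Leukocytes are the usual source of many family members, and the 8 of 12 leukocyte markers found in the table summed to 0.415 to 1.04 CPM per library, each under 1 CPM. Of the 3 endothelial markers in the table each was under 1 CPM, and the 4 fibroblast markers in the table summed to 12.2 to 14.1 CPM at time 0 and 12 hours and to 9.12 to 10.3 CPM at 24 hours, almost all of it Pdgfra. Whether the small amounts of such transcripts had a part in the results was not tested. Fewer cells of a kind and less RNA per cell cannot be told apart in these bulk libraries.

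Promoter sequence is given for Tnfrsf9, Tnf and Tnfsf10, which encode a receptor and a pair of ligands that were higher at 12 hours. Each window holds the 250 bases before a RefSeq transcript start (mouse assembly GRCm38.p6) and is written 5′ to 3′ on the strand of the gene. Capitals mark bases covered by a match to the NF-κB (kappa B) decamer consensus, the usual binding sequence of NF-κB dimers, which was searched on both strands. Tnfrsf9 has a pair of starts, at chr4:150919905-150920154 (+ strand, start 1) and chr4:150927749-150927998 (+ strand, start 2). The Tnf window is chr17:35202008-35202257 (- strand) and the Tnfsf10 window is chr3:27316827-27317076 (+ strand).
Tnfrsf9 start 1: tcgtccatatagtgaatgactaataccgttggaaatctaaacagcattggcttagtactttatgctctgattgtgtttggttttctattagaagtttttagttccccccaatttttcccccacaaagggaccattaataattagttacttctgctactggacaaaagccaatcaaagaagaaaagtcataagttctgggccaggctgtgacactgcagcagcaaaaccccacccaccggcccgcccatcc
Tnfrsf9 start 2: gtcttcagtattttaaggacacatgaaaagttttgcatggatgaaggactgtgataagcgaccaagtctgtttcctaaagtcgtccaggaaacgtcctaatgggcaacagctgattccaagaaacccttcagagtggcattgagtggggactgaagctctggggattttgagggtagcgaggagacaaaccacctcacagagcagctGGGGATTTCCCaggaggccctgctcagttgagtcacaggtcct
Tnf: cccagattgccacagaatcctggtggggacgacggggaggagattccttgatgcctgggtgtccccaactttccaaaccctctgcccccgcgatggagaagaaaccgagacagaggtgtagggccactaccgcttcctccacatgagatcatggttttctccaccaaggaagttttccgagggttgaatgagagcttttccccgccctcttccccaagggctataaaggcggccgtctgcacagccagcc
Tnfsf10: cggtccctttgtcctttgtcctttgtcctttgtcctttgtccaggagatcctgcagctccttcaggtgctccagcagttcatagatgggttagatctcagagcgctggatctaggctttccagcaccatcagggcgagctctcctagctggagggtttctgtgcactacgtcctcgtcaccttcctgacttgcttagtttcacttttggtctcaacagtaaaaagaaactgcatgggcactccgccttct

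The window before Tnfrsf9 start 2 held 3 overlapping matches on both strands, which cover 11 bases from 43 to 33 bases upstream of the start. The windows of Tnfrsf9 start 1, Tnf, Tnfsf10, Fas, Traf1 and Ngfr held none. RefSeq windows were available for 37 members, and 4 of the 37 (10.8%) held a match in a window, namely Tnfrsf9, Ltb, Tnfrsf8 and Traf3. The consensus was present in 668 of 12003 genes of the count table with a window (5.57%) and in 1281 of all 32851 windows (3.90%). Of the 5 members called at 12 hours, 1 held a match (20%), as did 1 of 8 with a window called higher at 24 hours (12.5%) and 0 of 4 called lower. A match in these 250 bases is a description of the letters, and the absence of one says nothing about sequence outside the window. Cd40, Tnfrsf10b, Tnfrsf22, Tnfrsf26, Tnfsf12 and Tnfsf9 had no window in the RefSeq table.

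A part of the family had very few reads in MyC-CaP. Of the 43 members, 28 had enough counts to be tested in at least 1 comparison and 25 in all 3 comparisons, while 15 were tested in none. The 15 untested members had 1 to 69 counts summed over the 9 libraries and at most 19 in any library. They were the ligands Fasl, Lta, Ltb, Tnfsf11, Tnfsf13b, Tnfsf15 and Tnfsf18, and the receptors Cd40, Tnfrsf8, Tnfrsf11a, Tnfrsf13b, Tnfrsf13c, Tnfrsf17, Tnfrsf18 and Tnfrsf25, many of which are textbook lymphocyte or dendritic cell genes. Of these, 7 had under 10 counts in total, and the 15 were left out of the main test.

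Levels were compared between genes as CPM per kilobase of exon. At time 0 the highest member was Tnfrsf21, which encodes death receptor 6, at 138 CPM per kb. It was followed by the lymphotoxin β receptor gene Ltbr at 62.2 CPM per kb, the TNF receptor 1 gene Tnfrsf1a at 50.7 CPM per kb and the TWEAK receptor gene Tnfrsf12a at 44.0 CPM per kb. At 24 hours the order had turned, with Tnfrsf12a first at 110 CPM per kb, Tnfrsf1a at 48.2, Ltbr at 44.7 and Tnfrsf21 at 34.4 CPM per kb. At each time the members at the top were receptors, and the highest ligand at time 0, Tnfsf9, stood at 8.58 CPM per kb. The plot of levels per length shows how far each member moved.

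**Figure D1:**
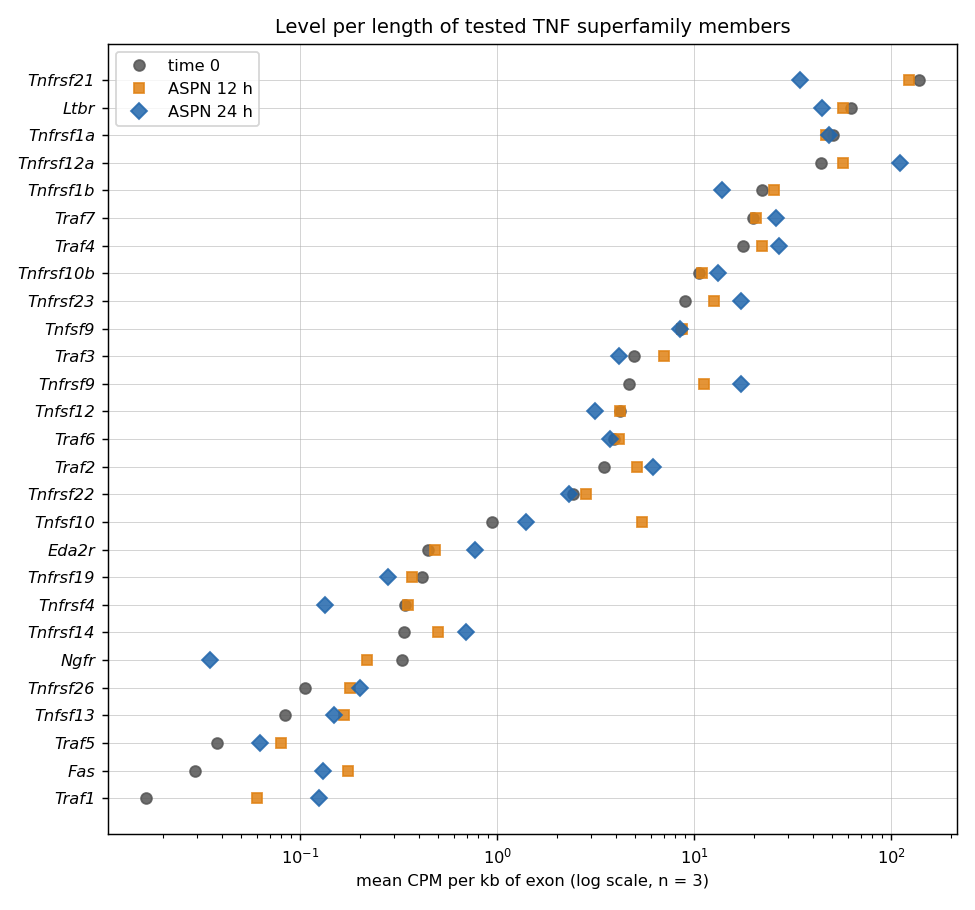
Mean CPM per kilobase of exon (log scale, n = 3 libraries per time, no error shown) for the tested members, ordered by the level at time 0, with Tnf left out because its time 0 libraries were at 0. Tnfrsf21 fell from 138 to 34.4 CPM per kb between time 0 and 24 hours while Tnfrsf12a rose from 44.0 to 110 CPM per kb, and Tnfsf10 stands out at 12 hours alone.

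The first question was which members differed after 12 hours. To be called, a gene had to reach a p of 0.05 or less in edgeR's quasi-likelihood test after Benjamini-Hochberg adjustment over all tested genes, together with a 1.5-fold change in either direction. At 12 hours 5 of 28 tested members (17.9%) were called against time 0, beside 1.6% of all 11410 tested genes. All 5 were higher (1.5% of all tested genes were called higher): Tnf, Tnfsf10, Fas, Traf1 and Tnfrsf9. The median log2 fold change was 0.27 over the tested members, unchanged with Tnf at its lower bound, and -0.0049 over all tested genes. By the adjusted p alone 13 members passed, beside 10.3% of all tested genes. The 3 libraries of 12 hours did not overlap those of time 0 for 18 members (64.3%), compared with 27.1% of all tested genes. However, Tnf, Fas and Traf1 passed the filter on low counts only through the 12-hour libraries, so a difference was built into their selection. Among the 23 members that passed in the libraries of both times, 2 were called (8.70%), compared with 1.41% of all such genes.

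At 24 hours against time 0, 13 of 25 tested members (52.0%) were called, beside 28.8% of all 11444 tested genes. They divided into 9 higher members (12% of all tested genes were called higher) and 4 lower members (16.8% of all genes). The median log2 fold change was 0.33 over the members and -0.02 over all genes. The libraries did not overlap for 20 members (80.0%), a share close to the 74% of all tested genes, and 20 passed the adjusted p alone, beside 70.9% of all tested genes. Among the 21 members that passed the filter at both times, 10 were called (47.6%, compared with 28.2% of all such genes), since Traf1 passed only through the 24-hour libraries, and Ngfr and Tnfrsf4 only through those of time 0. With scaling by total counts, which moved the median of all genes to -0.24, the split of called members became 6 higher and 7 lower. All log2 fold changes below are on the TMM scale, relative to a median of all genes near 0.

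Between 12 and 24 hours, 10 of 28 tested members (35.7%) were called, 4 higher and 6 lower at 24 hours, beside 25.7% of all 11394 tested genes (10.4% called higher and 15.3% called lower). By the adjusted p alone 19 members passed, beside 71.3% of all genes, and the libraries of the pair of times did not overlap for 20 members (71.4%), beside 73.8% of all genes. The last pair of shares are near the background. Tnfrsf4 and Ngfr, both lower, passed the filter only through the 12-hour libraries. Among the 22 members that passed at both times, 8 were called (36.4%), 4 higher and 4 lower, compared with 25.2% of all such genes. With total-count scaling the called members split into 2 higher and 8 lower, and all called genes into 484 higher and 2830 lower, beside 1184 and 1740 with TMM. Both comparisons with time 0 share the same 3 time 0 libraries, and the comparison of 24 with 12 hours shares libraries with each of them.

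**Figure D2:**
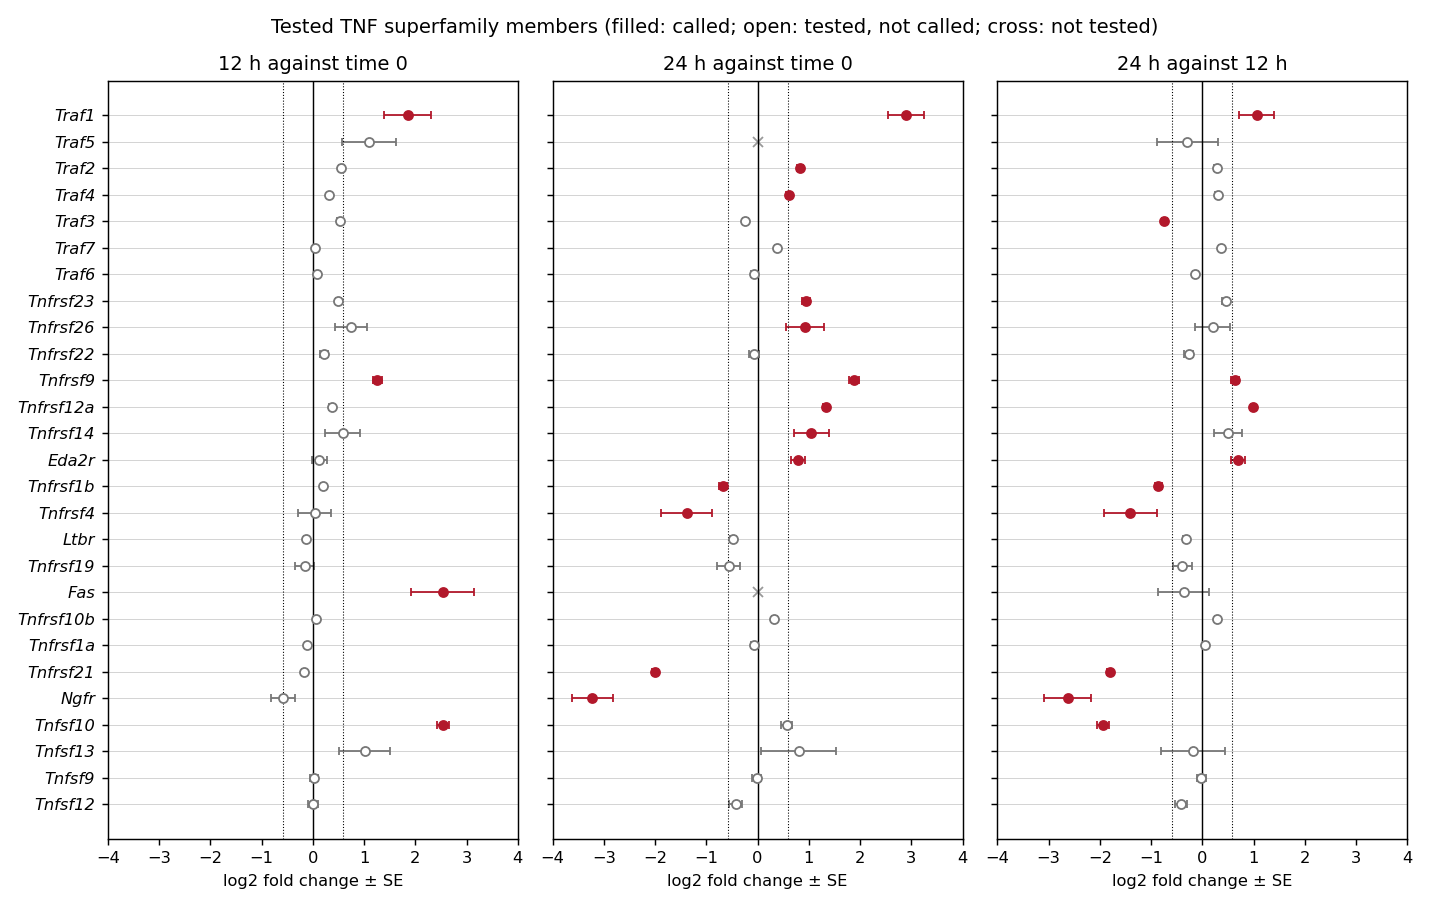
Log2 fold change with its SE (edgeR, 3 libraries per time) of each tested member except Tnf in the 3 comparisons, grouped by role. Filled points were called, open points were tested and not called, a cross at 0 marks a member not tested in that comparison, and dotted lines mark 1.5-fold. Called members lie to the right at 12 hours, and on both sides in the comparisons of 24 hours.

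Among the ligands, Tnf and Tnfsf10 rose by 12 hours, and no tested ligand was called at 24 hours against time 0. Tnf (chr17:35199381-35202007), the founding cytokine of the family, had 0, 0 and 0 counts at time 0, 20, 11 and 24 counts at 12 hours, and 13, 10 and 18 counts at 24 hours. The time 0 libraries held none of its reads and all 6 treated libraries held some, although its level after ASPN remained low, at 0.407 ± 0.158 CPM (SD) at 12 hours and 0.302 ± 0.0877 CPM at 24 hours. Taking 3 counts per library as the floor, Tnf was at least 6.74-fold higher at 12 hours than at time 0. The edgeR quasi-likelihood test gave a Benjamini-Hochberg adjusted p of 3.4e-04, which belongs to the fit of the counts and not to this floor. Tnf passed the filter there only through the 12-hour libraries, so this direction was built into its selection. The mean at 24 hours was at least 4.99-fold above the same floor, but Tnf did not pass the filter in that comparison and was not tested. The difference between 24 and 12 hours did not pass the test (log2 fold change -0.41, SE 0.43, edgeR adjusted p = 0.41).

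Tnfsf10 (chr3:27317028-27342427) encodes TRAIL, a ligand that can start apoptosis through death receptors. It was at 4.71, 5.25 and 4.91 CPM at time 0, at 29.0, 33.9 and 23.2 CPM at 12 hours and at 7.04, 7.28 and 7.73 CPM at 24 hours. The 12-hour libraries stood far above both other times, and the 3 times did not overlap. Tnfsf10 was 5.80-fold higher at 12 hours than at time 0 (log2 fold change 2.54, SE 0.11, edgeR adjusted p = 8.6e-11) and then fell (24 against 12 hours, log2 fold change -1.94, SE 0.12, edgeR adjusted p = 8.0e-09). The remaining difference at 24 hours against time 0 was 1.48-fold, just under the fold threshold (log2 fold change 0.57, SE 0.10, edgeR adjusted p = 2.4e-04). It passed the threshold with upper-quartile scaling (0.60), and without replicate 2 of time 0 (0.62) or replicate 1 of 24 hours (0.60).

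The other tested ligands gave no call. Tnfsf9, the ligand of 4-1BB, was at 11.1 ± 0.258, 11.2 ± 0.379 and 10.9 ± 1.18 CPM at 0, 12 and 24 hours, with overlapping libraries and a log2 fold change (SE 0.09) of -0.02 at 24 hours against time 0. Tnfsf12, which encodes TWEAK, was at 6.38 ± 0.256, 6.38 ± 0.344 and 4.74 ± 0.677 CPM, and its 24-hour libraries lay under those of both other times (24 hours against time 0, log2 fold change -0.43, SE 0.12, edgeR adjusted p = 0.0066). Under total-count scaling the 24-hour difference of Tnfsf12 passed the fold threshold. Of its exonic bases, 48.3% are shared with the read-through gene Tnfsfm13. For Tnfsf13, which encodes APRIL, 60.0% are overlapped by Tnfsfm13 and the antisense gene Tnfsf13os together, so the counts of both are uncertain. Tnfsf13 had 1 to 17 counts per library, and no comparison of it passed the test, although the 24-hour difference from time 0 did (log2 fold change 1.37) once replicate 3 of 24 hours, with 1 count, was left out.

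Of the receptors with a death domain, 1 of 5 tested was called at 12 hours (Fas, higher), beside 1.6% of all tested genes, and 2 of 4 tested at 24 hours (Tnfrsf21 and Ngfr, both lower), beside 28.8% of all. In these comparisons Fas passed the filter only through the 12-hour libraries and Ngfr only through those of time 0, the groups where they were high. Tnfrsf1a and Tnfrsf10b gave no call in any comparison. Fas (chr19:34290666-34327772), the receptor of Fas ligand, had 0, 5 and 4 counts at time 0, 22, 12 and 15 counts at 12 hours and 3, 18 and 17 counts at 24 hours. The 12-hour libraries lay above those of time 0, whereas 1 of the 24-hour libraries fell back among them. Fas was called at 12 hours (log2 fold change 2.53, SE 0.62, edgeR adjusted p = 0.012), but the call was lost without replicate 1 of 12 hours (edgeR adjusted p = 0.079, range 0.014 to 0.079 over the libraries left out in turn). It was not tested at 24 hours against time 0, and did not pass the test between 24 and 12 hours (log2 fold change -0.36, SE 0.50, edgeR adjusted p = 0.54). Fasl itself had 2 counts over all libraries.

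Tnfrsf21 (chr17:43016555-43089189), death receptor 6, was at 583, 557 and 557 CPM at time 0, at 508, 493 and 504 CPM at 12 hours and at 132, 148 and 144 CPM at 24 hours. The times did not overlap, and nearly all of the fall came after 12 hours. At 12 hours the difference was 1.13-fold and not called (log2 fold change -0.17, SE 0.03, edgeR adjusted p = 0.0019), and at 24 hours Tnfrsf21 was 4.0-fold lower than at time 0 (log2 fold change -2.0, SE 0.05, edgeR adjusted p = 3.9e-12). Between 12 and 24 hours the gene fell by 1.81 on the log2 scale (SE 0.04, edgeR adjusted p = 5.8e-12). Ngfr (chr11:95568818-95587735), the p75 neurotrophin receptor, which is used in prostate as a basal cell marker, followed at a far lower level. It had 57, 52 and 59 counts at time 0, 25, 39 and 38 at 12 hours and 7, 2 and 7 at 24 hours. The 3 times did not overlap, and the difference was called at 24 hours (log2 fold change -3.23, SE 0.40, edgeR adjusted p = 7.3e-06) but not at 12 hours (log2 fold change -0.58, SE 0.24, edgeR adjusted p = 0.16). At 24 hours against time 0, Ngfr passed the filter only through time 0, so this direction was built into its selection.

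Tnfrsf1a, Tnfrsf1b and Tnfrsf10b were above Tnf and Tnfsf10 in mean CPM per kb at each time, whereas Tnfrsf22 was under Tnfsf10 at 12 hours (2.81 against 5.44 CPM per kb). Tnfrsf1a, TNF receptor 1, was at 131 ± 8.24, 121 ± 3.79 and 125 ± 5.77 CPM at 0, 12 and 24 hours, and no comparison passed the test (log2 fold change -0.11 at 12 hours, SE 0.04, edgeR adjusted p = 0.12). Tnfrsf10b, the mouse TRAIL death receptor, was at 57.2 ± 1.64, 59.9 ± 0.973 and 71.9 ± 2.92 CPM. Its 24-hour libraries were above those of both other times, but the difference from time 0 was under the fold threshold (log2 fold change 0.33, SE 0.05, edgeR adjusted p = 2.9e-05). Thus, per kilobase, Tnfsf10 rose from 0.941 to 5.44 CPM per kb at 12 hours and was at 1.40 CPM per kb at 24 hours, beside 10.5, 11 and 13.2 CPM per kb for Tnfrsf10b.

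Of the 8 tested receptors that act through TRAF proteins, 6 were called at 24 hours, 4 higher and 2 lower, beside 28.8% of all tested genes (12% higher and 16.8% lower). Of these 6, Tnfrsf4 passed the filter only through time 0, and the calls of Tnfrsf14 and Tnfrsf4 were lost on leaving out single libraries. Tnfrsf9 (chr4:150914562-150946102) encodes 4-1BB, a costimulatory receptor best known from activated T cells. It was at 14.5, 11.7 and 11.9 CPM at time 0, at 27.4, 32.4 and 31.3 CPM at 12 hours and at 40.9, 49.3 and 50.4 CPM at 24 hours. The libraries rose from time to time without overlap. Tnfrsf9 was 2.40-fold higher at 12 hours (log2 fold change 1.26, SE 0.08, edgeR adjusted p = 1.1e-08) and 3.70-fold higher at 24 hours than at time 0 (log2 fold change 1.89, SE 0.09, edgeR adjusted p = 1.4e-09). The further rise from 12 to 24 hours (log2 fold change 0.65, SE 0.08, edgeR adjusted p = 7.2e-06) was close to the fold threshold, and fell under it without replicate 1 of 12 hours (0.58) and with total-count scaling (0.42). Per kilobase, Tnfrsf9 went from 4.66 to 11.2 and 17.2 CPM per kb, while Tnfsf9 stayed between 8.45 and 8.68 CPM per kb. Of the Tnfrsf9 promoter windows, the second carries the kappa B match shown above and the first carries none. Which start was used, and whether the match had a part in the rise, was not tested.

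Tnfrsf12a (chr17:23675445-23677468), which encodes the TWEAK receptor Fn14, was at 78.2, 89.1 and 87.6 CPM at time 0, at 111, 107 and 109 CPM at 12 hours and at 205, 225 and 209 CPM at 24 hours. The 3 times were separate. The 12-hour difference passed the adjusted p but not the fold threshold (log2 fold change 0.37, SE 0.04, edgeR adjusted p = 1.3e-05), and at 24 hours Tnfrsf12a was 2.51-fold higher than at time 0 (log2 fold change 1.33, SE 0.06, edgeR adjusted p = 3.6e-10). From 12 to 24 hours it rose again (log2 fold change 0.98, SE 0.04, edgeR adjusted p = 2.7e-10). Its ligand gene Tnfsf12 stood at 4.21 CPM per kb at time 0 and at 3.13 CPM per kb at 24 hours.

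TNF receptor 2, Tnfrsf1b, had a different course from Tnfrsf1a. It was at 90.8, 81.2 and 81.0 CPM at time 0, at 96.0, 100 and 94.1 CPM at 12 hours and at 45.5, 58.0 and 54.0 CPM at 24 hours. All 24-hour libraries lay below the rest. The 12-hour difference was small and not called (log2 fold change 0.20, SE 0.04, edgeR adjusted p = 0.0055), and Tnfrsf1b was 1.60-fold lower at 24 hours than at time 0 (log2 fold change -0.68, SE 0.08, edgeR adjusted p = 2.9e-06). This call was just lost with a correction for exonic length and GC content (-0.57), whereas the fall from 12 to 24 hours was called under every alternative (log2 fold change -0.86, SE 0.07, edgeR adjusted p = 9.7e-08).

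Tnfrsf14 and Eda2r were higher at 24 hours than at time 0. Tnfrsf14, the herpesvirus entry mediator, had 30, 27 and 14 counts at time 0, 30, 27 and 40 at 12 hours and 41, 56 and 39 at 24 hours. The 24-hour libraries lay above those of time 0, and the call (log2 fold change 1.05, SE 0.34, edgeR adjusted p = 0.014) was lost without replicate 3 of time 0 (edgeR adjusted p = 0.066, range 0.012 to 0.066 over the libraries left out in turn). Neither the 12-hour difference (log2 fold change 0.58, SE 0.34, edgeR adjusted p = 0.36) nor the step from 12 to 24 hours (0.50, SE 0.28, edgeR adjusted p = 0.12) passed the test. Eda2r, the receptor of the ectodysplasin isoform EDA-A2, was at 2.49, 2.87 and 2.53 CPM at time 0, at 3.30, 2.56 and 2.70 CPM at 12 hours and at 4.63, 4.96 and 4.08 CPM at 24 hours. Its first 2 times overlapped and the 24-hour libraries were above both (against time 0, log2 fold change 0.79, SE 0.14, edgeR adjusted p = 1.6e-04). Against 12 hours the log2 fold change was 0.69 (SE 0.14, edgeR adjusted p = 6.1e-04), and with total-count scaling both values fell under the fold threshold (0.57 and 0.47).

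Tnfrsf4, which encodes the costimulatory receptor OX40, was rare, with 18, 23 and 29 counts at time 0, 27, 17 and 21 at 12 hours and 11, 2 and 11 at 24 hours. The 24-hour libraries were below those of time 0 and 12 hours (against time 0, log2 fold change -1.39, SE 0.50, edgeR adjusted p = 0.025). In that comparison Tnfrsf4 passed the filter only through time 0, where it was higher. The call was lost on leaving out replicate 2 or 3 of time 0 or replicate 2 of 24 hours, which alone moved the log2 fold change to -0.89 (edgeR adjusted p 0.014 to 0.091 over the libraries left out in turn). Ltbr, at 146 ± 5.58, 133 ± 2.27 and 105 ± 11.1 CPM, gave separate times but no call (24 hours against time 0, log2 fold change -0.48, SE 0.06, edgeR adjusted p = 1.8e-05). Tnfrsf19, known as TROY, was at 1.97 ± 0.468, 1.76 ± 0.0335 and 1.33 ± 0.0749 CPM, and its 24-hour difference was 1.48-fold and not called (log2 fold change -0.57, SE 0.22, edgeR adjusted p = 0.031). With total-count scaling the 24-hour differences of Ltbr and Tnfrsf19 from time 0 both passed the fold threshold, as did that of Tnfrsf19 without replicate 2 or 3 of time 0 or replicate 2 of 24 hours (-0.61 to -0.66). Without replicate 1 of time 0 the log2 fold change of Tnfrsf19 was -0.34 (edgeR adjusted p = 0.20, range 0.030 to 0.20 over the libraries left out in turn).

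**Figure D3:**
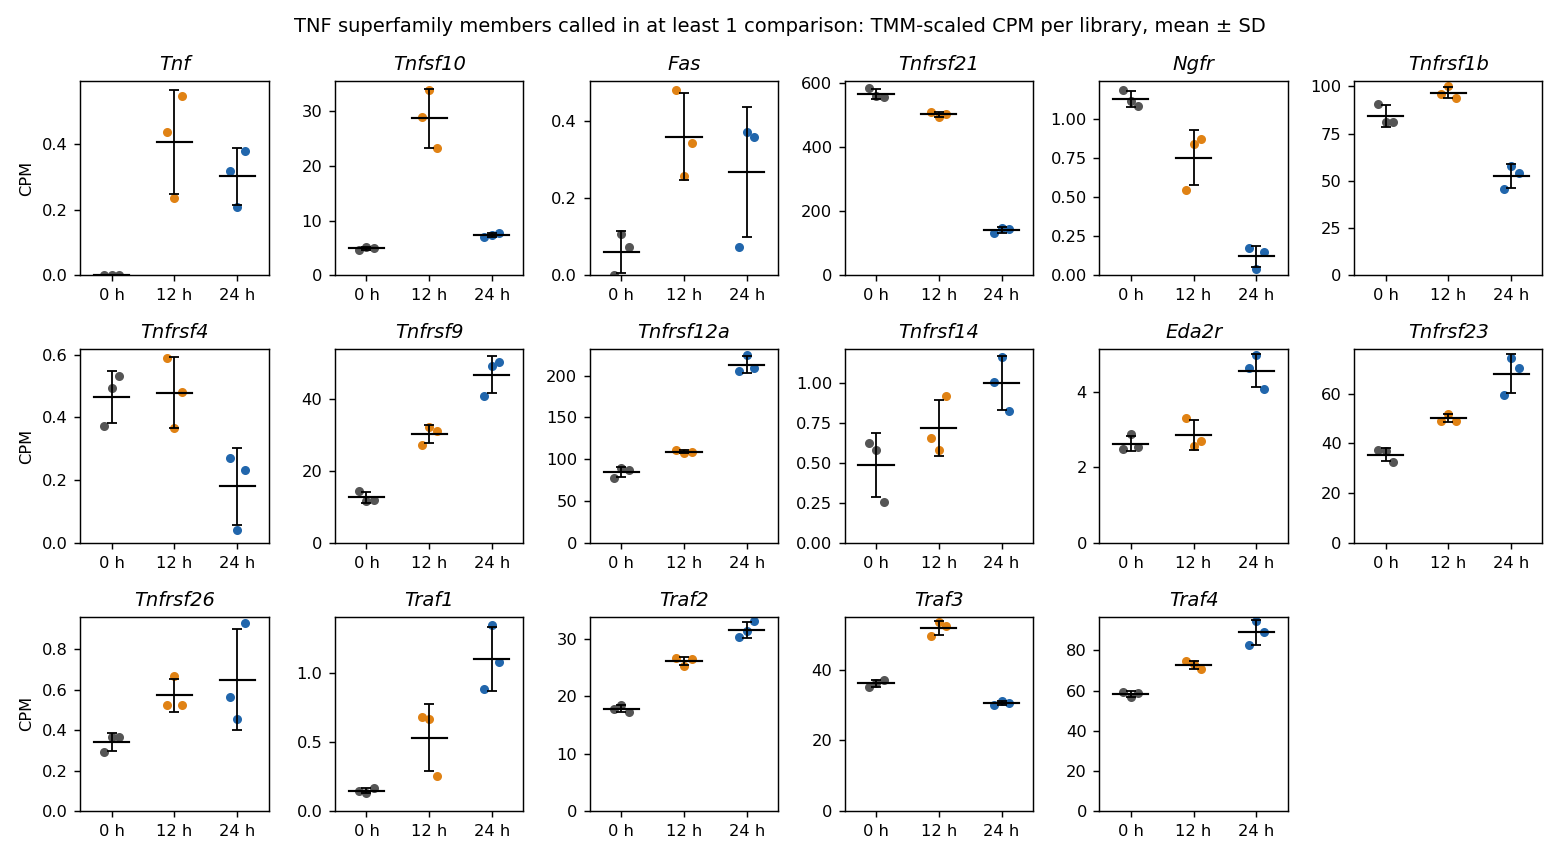
TMM-scaled CPM of each library (points) with the mean and SD (horizontal bar and error bar, n = 3) at 0, 12 and 24 hours for the 17 members called in at least 1 comparison, each panel on its own linear axis from 0. Tnfsf10 peaks at 12 hours between 23.2 and 33.9 CPM, Tnfrsf9, Tnfrsf12a and Traf2 are highest at 24 hours, and Tnfrsf21 and Ngfr are lowest at 24 hours.

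A cluster of 3 receptor genes lies on chromosome 7, with Tnfrsf26 at chr7:143607659-143628722, Tnfrsf22 at chr7:143634806-143649661 and Tnfrsf23 at chr7:143665809-143685872, all on the - strand. Tnfrsf22 and Tnfrsf23 encode decoy receptors of TRAIL, and they share 17.3% and 18% of their exonic 50-base words, so reads may have been lost or split between them. Tnfrsf23 was at 37.3, 36.8 and 32.5 CPM at time 0, at 49.1, 52.0 and 49.2 CPM at 12 hours and at 59.3, 74.3 and 70.4 CPM at 24 hours. The times were separate, and Tnfrsf23 was called at 24 hours (1.92-fold, log2 fold change 0.94, SE 0.08, edgeR adjusted p = 1.8e-07) but not at 12 hours (1.41-fold, log2 fold change 0.50, SE 0.05, edgeR adjusted p = 2.9e-06).

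Its neighbour Tnfrsf22 gave no call, at 10.2 ± 0.204, 11.8 ± 0.893 and 9.71 ± 0.797 CPM (24 hours against time 0, log2 fold change -0.07, SE 0.09, edgeR adjusted p = 0.50). Tnfrsf26 had 14, 17 and 20 counts at time 0, 24, 31 and 23 at 12 hours and 23, 22 and 44 at 24 hours. Although both later times lay above time 0, the 24-hour call (log2 fold change 0.93, SE 0.37, edgeR adjusted p = 0.036) was the least secure of all. It was lost with DESeq2, limma-voom, total-count scaling and replicate number as a block. The length and GC correction, alone or with the block, lost it too (adjusted p 0.023 to 0.0996 over all alternatives). So did leaving out replicate 1, 2 or 3 of time 0 or replicate 3 of 24 hours (edgeR adjusted p up to 0.21).

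The TRAF adaptors divided by member. Traf1 (chr2:34941750-34961772), an adaptor without a RING domain that is a known NF-κB target, had 7, 6 and 9 counts at time 0, 31, 31 and 11 at 12 hours and 36, 65 and 51 at 24 hours. The times did not overlap, though replicate 3 of 12 hours was close to time 0. Traf1 was 3.60-fold higher at 12 hours (log2 fold change 1.85, SE 0.45, edgeR adjusted p = 0.012) and 7.42-fold higher at 24 hours than at time 0 (log2 fold change 2.89, SE 0.35, edgeR adjusted p = 6.7e-06). In each of these comparisons it passed the filter only through the later libraries, so this direction was built into its selection. The 12-hour call was lost without replicate 1 or replicate 2 of 12 hours (edgeR adjusted p = 0.078 and 0.091, range 0.0028 to 0.091). The rise from 12 to 24 hours (log2 fold change 1.07, SE 0.34, edgeR adjusted p = 0.013) was lost without replicate 3 of 12 hours (edgeR adjusted p = 0.057, range 0.0055 to 0.057).

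Traf2, the ubiquitin ligase that many receptors of the family recruit, was at 17.7, 18.5 and 17.2 CPM at time 0, at 26.6, 25.3 and 26.5 CPM at 12 hours and at 30.3, 31.3 and 33.1 CPM at 24 hours. These 3 times were separate. The 12-hour difference was just under the fold threshold (1.47-fold, log2 fold change 0.56, SE 0.06, edgeR adjusted p = 2.0e-06), and Traf2 was called at 24 hours (1.77-fold, log2 fold change 0.83, SE 0.06, edgeR adjusted p = 5.1e-08). Traf4, an adaptor known from epithelial junctions and carcinomas, was at 59.3, 56.8 and 59.0 CPM at time 0, at 74.8, 73.2 and 70.8 CPM at 12 hours and at 82.7, 94.7 and 89.4 CPM at 24 hours. Its libraries were also separate, but its 24-hour call (1.52-fold, log2 fold change 0.61, SE 0.05, edgeR adjusted p = 2.3e-07) was lost with total-count scaling (0.39) and without replicate 2 of 24 hours (0.56).

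Traf3, which restrains the noncanonical NF-κB pathway, was at 35.0, 36.3 and 37.1 CPM at time 0, at 49.6, 53.5 and 52.3 CPM at 12 hours and at 30.1, 31.1 and 30.5 CPM at 24 hours. The 12-hour libraries were the highest and the 24-hour libraries the lowest. The 12-hour difference was 1.44-fold and not called (log2 fold change 0.52, SE 0.04, edgeR adjusted p = 1.9e-07), whereas Traf3 fell between 12 and 24 hours (1.67-fold, log2 fold change -0.74, SE 0.05, edgeR adjusted p = 1.5e-08). With the length and GC correction that fall was under the fold threshold (-0.42), and the small 24-hour difference from time 0 (log2 fold change -0.24) changed sign (0.087). Traf6, used by CD40 and by the Toll-like and IL-1 receptors, was at 30.7 ± 0.931, 32.6 ± 1.41 and 29.3 ± 1.17 CPM with no call. Traf7, at 117 ± 4.56, 120 ± 1.25 and 153 ± 5.76 CPM, was higher at 24 hours by less than the fold threshold (log2 fold change 0.39, SE 0.05, edgeR adjusted p = 4.5e-06), and passed it with the length and GC correction (0.66). Traf5 had 5 to 27 counts per library and no call, and was not tested at 24 hours against time 0.

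Other genes of TNF receptor signaling were followed with a list of 62 adaptors, kinases, ubiquitin regulators and NF-κB factors. The list was chosen with earlier results of these data known, so the shares called are not independent of that choice. At 12 hours 9 of its 58 tested genes (15.5%) were called, all higher, beside 1.6% of all tested genes, with a median log2 fold change of 0.07. They were the NF-κB subunit genes Relb (2.45, SE 0.08) and Nfkb2 (1.21, SE 0.04), the IκBα gene Nfkbia (2.23, SE 0.03), the A20 gene Tnfaip3 (2.20, SE 0.05), the kinase genes Map3k8 (2.18, SE 0.12), Ikbke (0.68, SE 0.08) and Ripk2 (0.66, SE 0.09), the A20-binding protein gene Tnip1 (0.91, SE 0.06) and Rhbdf2 (0.96, SE 0.06), which encodes a partner of the TNF-releasing protease ADAM17. The call of Ripk2 fell under the fold threshold without replicate 2 of 12 hours (0.58). Thus both inducers and inhibitors of the pathway were among them. Tnfaip3 and Nfkbia are inhibitors that NF-κB itself induces.

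At 24 hours 16 of 59 tested genes of the list (27.1%) were called, 11 higher and 5 lower, a share near the 28.8% of all tested genes, and the median log2 fold change was 0.24. With total-count scaling 17 were called, 7 higher and 10 lower. The highest was Tnfaip2 (3.04, SE 0.48), a TNF-induced gene that was at 0.0812 CPM at time 0 and 0.686 CPM at 24 hours and passed the filter only through the 24-hour libraries. Relb (2.45, SE 0.10), Map3k8 (1.95, SE 0.13), Nfkbia (1.80, SE 0.06), Tnfaip3 (1.45, SE 0.07), Nfkb2 (1.21, SE 0.06) and Rhbdf2 (0.92, SE 0.07) were called again. Lower were Traf3ip1 (-1.04, SE 0.07), the apoptosis signal-regulating kinase gene Map3k5 (-1.02, SE 0.07) and Madd (-0.85, SE 0.10), which encodes a death domain protein that binds TNF receptor 1. Madd fell under the fold threshold with the length and GC correction (-0.46).

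From 12 to 24 hours 11 of 59 tested list genes (18.6%) were called, 4 higher and 7 lower, beside 25.7% of all tested genes. Tnfaip3 was among the lower genes (372.8 against 223.0 CPM, log2 fold change -0.72, SE 0.05), as were Spata2 (-1.33, SE 0.09), Traf3ip1 (-1.07, SE 0.06), Madd (-0.90, SE 0.10), the cIAP1 gene Birc2 (-0.79, SE 0.07) and Map3k5 (-0.77, SE 0.07). Higher were Tnfaip2 (1.58, SE 0.38), which passed the filter only through the 24-hour libraries, the necroptosis genes Mlkl (0.72, SE 0.06) and Ripk3 (0.60, SE 0.08), and the JNK1 gene Mapk8 (0.72, SE 0.05). Mlkl, Mapk8 and Ripk3 fell under the fold threshold with total-count scaling (0.50, 0.49 and 0.38), which left 1 list gene higher and 14 lower. Ripk3 did so too without replicate 2 of 12 hours (0.53) or of 24 hours (0.57). With the length and GC correction Ripk3 (0.55) and Madd (-0.52) also fell under it.

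**Figure D4:**
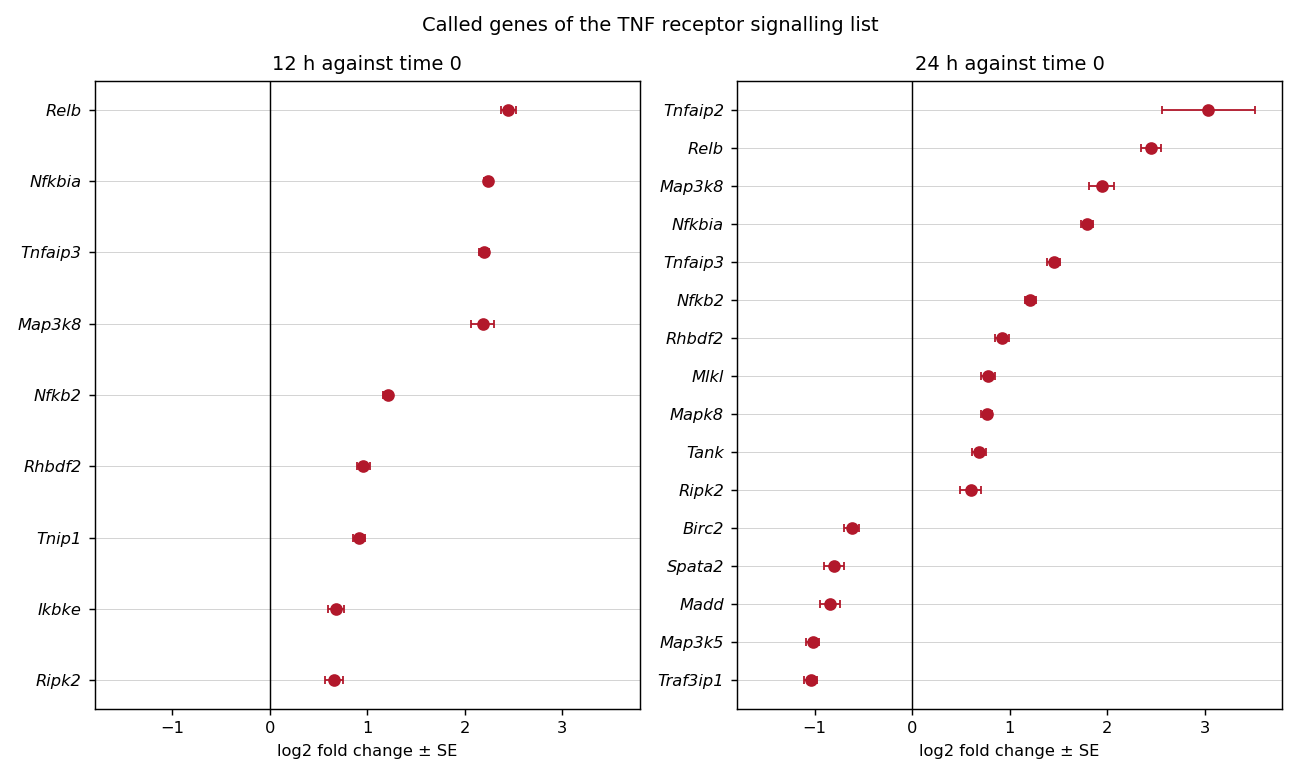
Log2 fold change with its SE (edgeR, 3 libraries per time) of every called gene of the TNF receptor signaling list at 12 hours (9 genes) and at 24 hours (16 genes) against time 0. All points of 12 hours lie above 0, and 5 of the 16 points of 24 hours lie below 0.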

How the data were processed

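The authors prepared TruSeq mRNA libraries from MyC-CaP cells, sequenced paired-end reads, trimmed them with Cutadapt, aligned them to GRCm38.p6 with STAR and counted reads per gene of GENCODE vM24 with featureCounts. The deposited values are raw counts, and the strand setting is not stated, so sense and antisense reads could not be separated. How the genes of the table were chosen is not given in the sources used here. Positions come from GENCODE M21 of the same assembly (15374 of 15384 genes found, and all 43 members had the same coordinates), promoters from RefSeq.

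Each comparison used 6 libraries, filterByExpr (minimum count 10), TMM factors and edgeR 4.0.16 quasi-likelihood tests (R 4.3.3) without a block, with Benjamini-Hochberg adjustment over all tested genes. SE is the log2 fold change divided by the root of F. CPM were scaled by TMM over the 9 libraries, and the floor was 3 counts per library, covering counting error only. Alternatives are listed in the closing section. The members and gene lists were chosen with earlier results of these data known. Called members were described in full, and list genes if among the 10 largest called changes. Some prostate epithelial markers are not reported here. Figures were drawn with matplotlib 3.10.9. The labels name biological replicates, and the paper's methods state plating in triplicate. The p-values measure the spread between these cultures, and whether they came from separate experiments is not stated. Replicates differed by more than counting noise (chi-square per degree of freedom 3.41 to 17.5). On simulated data with 11355 genes for 12 hours against time 0, 94.9% of 2-fold changes were called, with 3 false calls. The shares were 90.9% for 24 hours against time 0 and 91.9% for 24 against 12 hours. The counts were drawn from edgeR's own fitted dispersions with changes on random genes, so these shares do not speak for members with few counts.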

Additional observations from a re-analysis of the deposited data

Results flagged for a closer look

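For 10 members the libraries of 24 hours differed from those of 12 hours in the direct test of the pair of times (edgeR quasi-likelihood test, Benjamini-Hochberg adjusted p of 0.05 or less, at least 1.5-fold), so their changes from time 0 differed between 12 and 24 hours. Higher at 24 than at 12 hours were Traf1 (log2 fold change 1.07), Tnfrsf12a (0.98), Eda2r (0.69) and Tnfrsf9 (0.65). Lower at 24 than at 12 hours were Traf3 (-0.74), Tnfrsf1b (-0.86), Tnfrsf4 (-1.40), Tnfrsf21 (-1.81), Tnfsf10 (-1.94) and Ngfr (-2.63). Tnfrsf4 and Ngfr passed the filter on low counts only through the 12-hour libraries, where they were higher, so this direction was built into their selection. The call of Tnfrsf4 was lost without replicate 1 or 3 of 12 hours or replicate 2 of 24 hours (log2 fold change as small as -0.91, edgeR adjusted p up to 0.10), that of Traf1 without replicate 3 of 12 hours (0.74, edgeR adjusted p = 0.057) and that of Tnfrsf9 without replicate 1 of 12 hours (0.58). Of the genes lower at 24 hours, Tnfsf10, Traf3 and Tnfrsf1b were above time 0 in every library of 12 hours, and Tnfsf10 remained above it at 24 hours. Among all tested genes, 25.7% were called in this comparison, and among genes that passed the filter at both times 8 of 22 members (36.4%) and 25.2% of all. No group of 4 or more libraries was available for a check of single outlying libraries.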

How the results depend on the processing

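The alternatives were DESeq2 1.42.0, limma-voom (limma 3.58.1), RLE, upper-quartile and total-count scaling, no filter, a minimum of 10 counts in each library of the comparison, a joint fit of the 9 libraries, the replicate block, a length and GC correction (loess span 0.3) alone and with the block, the adjusted p alone and leaving out each library in turn. For list genes and Relt they were computed after seeing the data. In order of the comparisons (12 hours and 24 hours against time 0, and 24 against 12 hours), the calls of 3 of 5, 7 of 13 and 5 of 10 called members held in every fit that tested them with the fold threshold, and no called member changed sign. Without the fold threshold 13, 20 and 19 members and 21, 49 and 42 list genes passed. With at least 10 counts in every library 2 members were called at 12 hours, since Tnf, Fas and Traf1 were no longer tested. Leaving out single libraries gave 3 to 5, 13 to 15 and 8 to 10 called members (3 at 12 hours without replicate 1 of 12 hours), and 8 to 11, 14 to 16 and 9 to 12 list genes. Same-numbered libraries did not deviate together (mean correlations -0.02, -0.06 and 0.02). With the replicate block 5, 12 and 10 members were called, and the pairing changed no call but that of Tnfrsf26.

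Among the fits run, changes of sign were confined to comparisons in which the gene was not called. At 12 hours against time 0, Tnfsf12 (0.00) was -0.000326 with limma-voom, -0.013 with upper-quartile, -0.019 with total-count scaling, -0.0024 with the joint fit and -0.023 with the length and GC correction (-0.024 together with the block), and -0.031 to 0.043 with single libraries left out. Tnfsf9 was -0.0056 with that correction alone and -0.0048 with that correction and the block together, and -0.0027 to 0.047 with single libraries left out. At 24 hours against time 0, Tnfsf9 was 0.012 with upper-quartile scaling, and -0.084 to 0.064 with single libraries left out, and Traf3 was 0.087 with the correction, alone or with the block. From 12 to 24 hours, Tnfsf9 was 0.0062 with upper-quartile scaling, and Tnfrsf1a was -0.16 and Tnfrsf26 -0.020 with total counts. Leaving out single libraries gave at 12 hours -0.15 to 0.20 for Tnfrsf4, -0.26 to 0.053 for Tnfrsf19 and -0.041 to 0.18 for Relt, and from 12 to 24 hours -0.083 to 0.063 for Tnfsf9, -0.16 to 0.41 for Tnfrsf26, -1.28 to 0.30 for Traf5, -0.66 to 0.041 for Fas and -0.77 to 0.38 for Tnfsf13. The causes were not tested. Under total counts the median of all genes was -0.24 at 24 hours against time 0 and -0.22 against 12 hours, and calls split into 698 higher and 3008 lower at 24 hours, beside 1374 and 1924 with TMM and 1518 and 1514 with the length and GC correction. Member calls lost on leaving out a single library were those of Fas and Traf1 at 12 hours, of Tnfrsf4, Tnfrsf14, Tnfrsf26 and Traf4 at 24 hours against time 0, and of Traf1, Tnfrsf4 and Tnfrsf9 at 24 against 12 hours. Traf4 and Tnfrsf9 were near the fold threshold in these comparisons, and the other genes had at most 65 counts in any library.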

Other observations

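Family genes whose symbols do not follow the naming pattern were read in the same fits. Relt, a TNF receptor-like gene, was at 1.85, 2.19 and 2.49 CPM at time 0, at 2.23, 2.34 and 2.24 CPM at 12 hours and at 5.44, 7.34 and 6.30 CPM at 24 hours. Its 24-hour libraries stood above all the others, and it was 2.92-fold higher at 24 hours than at time 0 (log2 fold change 1.55, SE 0.15, edgeR adjusted p = 9.4e-07) and 2.84-fold higher than at 12 hours (log2 fold change 1.51, SE 0.14, edgeR adjusted p = 3.7e-07). At 12 hours against time 0 the log2 fold change was 0.06 (SE 0.16, edgeR adjusted p = 0.88). Its relatives Rell1 and Rell2 were not called. Rell1 was at 74.8, 66.7 and 65.0 CPM at 0, 12 and 24 hours, and Rell2 stood under 1 CPM on average at each time. The read-through gene Tnfsfm13 and the lymphocyte receptor gene Cd27 were likewise under 1 CPM and not called.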
